A study of Mus musculus with 12 samples.

Results

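The cytosolic ribosomal protein genes are described here in spontaneous lung tumours and normal lungs of aged mice. They were taken as the probe sets annotated with 1 gene symbol of the form Rpl or Rps plus a number, with Rplp0, Rplp2 and Rpsa added and the Rps6k kinases left out. The rule gave 49 genes on 105 probe sets, of 18193 genes on 45037 probe sets in all. Each gene was read from its probe set with the highest mean signal over the 12 arrays. Of the 49 genes, 43 are core ribosomal protein genes, 21 of the small and 22 of the large subunit, and 6 are paralogues with tissue-restricted or extraribosomal roles. Many other core genes, Rpl5, Rpl10, Rpl23 and Rplp1 among them, are not named by a single-symbol probe set here and have no value of their own. The groups were 6 spontaneous lung tumours and 6 normal lungs, 1 Affymetrix array each, from untreated B6C3F1 mice of 2 years kept in a rodent bioassay of the National Toxicology Program. B6C3F1 is the cross of C57BL/6 and C3H mice, and the labels give neither the tumours' histology nor the sex of the animals. The labels also do not say that the samples came from separate animals, so p-values rest on the spread among these 12 arrays, whatever its source.

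A ribosome holds ribosomal RNA and one copy of most ribosomal proteins, and cells therefore make these proteins in near-equal numbers from messages that rank among the most abundant of any tissue. Many of these messages start at a cytosine followed by a run of pyrimidines, the 5′ terminal oligopyrimidine (TOP) motif, through which mTOR signalling sets their translation. Several ribosomal proteins also act off the ribosome: Rpl11, with Rpl5 and 5S ribosomal RNA, binds Mdm2 and so links ribosome assembly to p53.

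The sequences around the RefSeq transcription starts show how far these genes share that start. A promoter of 250 bases before and 50 bases after the start was held for 43 of the 49 genes (RefSeq, GRCm38.p6). A C at the annotated start followed by at least 4 pyrimidines was found on the sense strand in 8 of the 43 genes (18.6%) and in 3.01% of the 27025 genes of the promoter table. All 8 were core genes, and none of the 5 paralogues with a promoter had it. The stretches below run from 10 bases before to 20 bases from the start, with the longest pyrimidine run in capitals. They set 2 genes that were higher in tumours and had such a start (Rps18, Rpl35) beside 2 that had one and did not pass the test (Rpl38, Rps27) and beside 2 of the most raised genes without one (Rpl37, Rpl22l1).
Rps18, chr17:33955646-33955675, minus strand: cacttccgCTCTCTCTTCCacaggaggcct
Rpl35, chr2:39005112-39005141, minus strand: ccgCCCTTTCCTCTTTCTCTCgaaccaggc
Rpl38, chr11:114668570-114668599, plus strand: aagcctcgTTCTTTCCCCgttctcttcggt
Rps27, chr3:90213629-90213658, minus strand: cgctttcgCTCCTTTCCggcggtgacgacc
Rpl22l1, chr3:28805498-28805527, plus strand: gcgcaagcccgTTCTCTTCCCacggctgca
Rpl37, chr15:5116603-5116632, plus strand: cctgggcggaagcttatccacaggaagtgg
Rpl37 has no pyrimidine run of 5 or more in this window and is shown without capitals. A RefSeq start can lie some bases from the start used in lung.

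A second shared feature was the letters CCGGAAG, the core recognised by ETS transcription factors, searched on both strands. They occurred in the promoters of 21 of the 43 genes (48.8%) and of 9.93% of all 27025. Among core genes with a promoter they were in 11 of the 23 that were higher in tumours (47.8%) and in 8 of the 15 that did not pass the test (53.3%). They are shown in capitals, CCGGAAG on the sense strand and CTTCCGG where the match is antisense, in 40 bases upstream of the start of 2 genes that were higher (Rpl37, Rps7) and 1 that was not called (Rpl38).
Rpl37, chr15:5116573-5116612, plus strand: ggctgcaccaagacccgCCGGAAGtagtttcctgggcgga
Rps7, chr12:28635954-28635993, minus strand: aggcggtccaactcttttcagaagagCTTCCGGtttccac
Rpl38, chr11:114668540-114668579, plus strand: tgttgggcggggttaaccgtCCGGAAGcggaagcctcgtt
The letters AAGATGG, a form of the YY1 site, were found on either strand in 18.6% of the 43 genes and in 7.28% of all. The E-box letters CACGTG, read by MYC among other factors, were in 9.3% and 8.09%, and TATAAA, the TATA box, in 14% and 15.7%, both searched on either strand. The letters CTTTCC within 50 bases of the start, on the sense strand, were in 27.9% and 5.43%, and they lie inside the pyrimidine runs of Rpl35, Rpl38 and Rps27 printed above. Split in the same way, CTTTCC was in 9 of the 23 core genes that were higher (39.1%) and in 2 of the 15 that did not pass (13.3%). The E-box letters were in 4 of the 23 (17.4%) and 0 of the 15, AAGATGG in 21.7% and 13.3%, TATAAA in 13% and 13.3%, and the pyrimidine start in 17.4% and 26.7%. These splits were not tested. These are matches of letters, not measured binding.

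Most ribosomal protein genes were higher in spontaneous tumours than in normal lungs, by a modest amount. On the deposited scale 29 of the 49 genes passed the test upward and 1, Rps4l, passed it downward, where 12.2% of all genes were called higher and 17.5% lower. Differences are given on a log2 scale, as log2(signal + 16) in tumours less that in normal lungs, with the standard error (SE) and 6 arrays per group, and were tested with limma across all probe sets with Benjamini-Hochberg adjustment at 0.05. The median difference over the 49 genes was 0.48, a 1.40-fold higher level in tumours, and over all genes it was -0.08. In 17 genes every tumour lay above every normal lung, and in 1 every tumour lay below, where 6.77% and 11.8% of all genes did so. The scaling of the arrays mattered: after quantile normalization 16 of the 49 passed upward and 1 downward (all genes 13.9% and 16%), and the median difference was 0.26, or 1.20-fold, against 0.01 over all genes. Of the 29 genes, 15 passed upward under both scalings, 14 passed only as deposited, and none of them changed sign. Rpl27a passed upward only after quantile normalization.

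**Figure D1:**
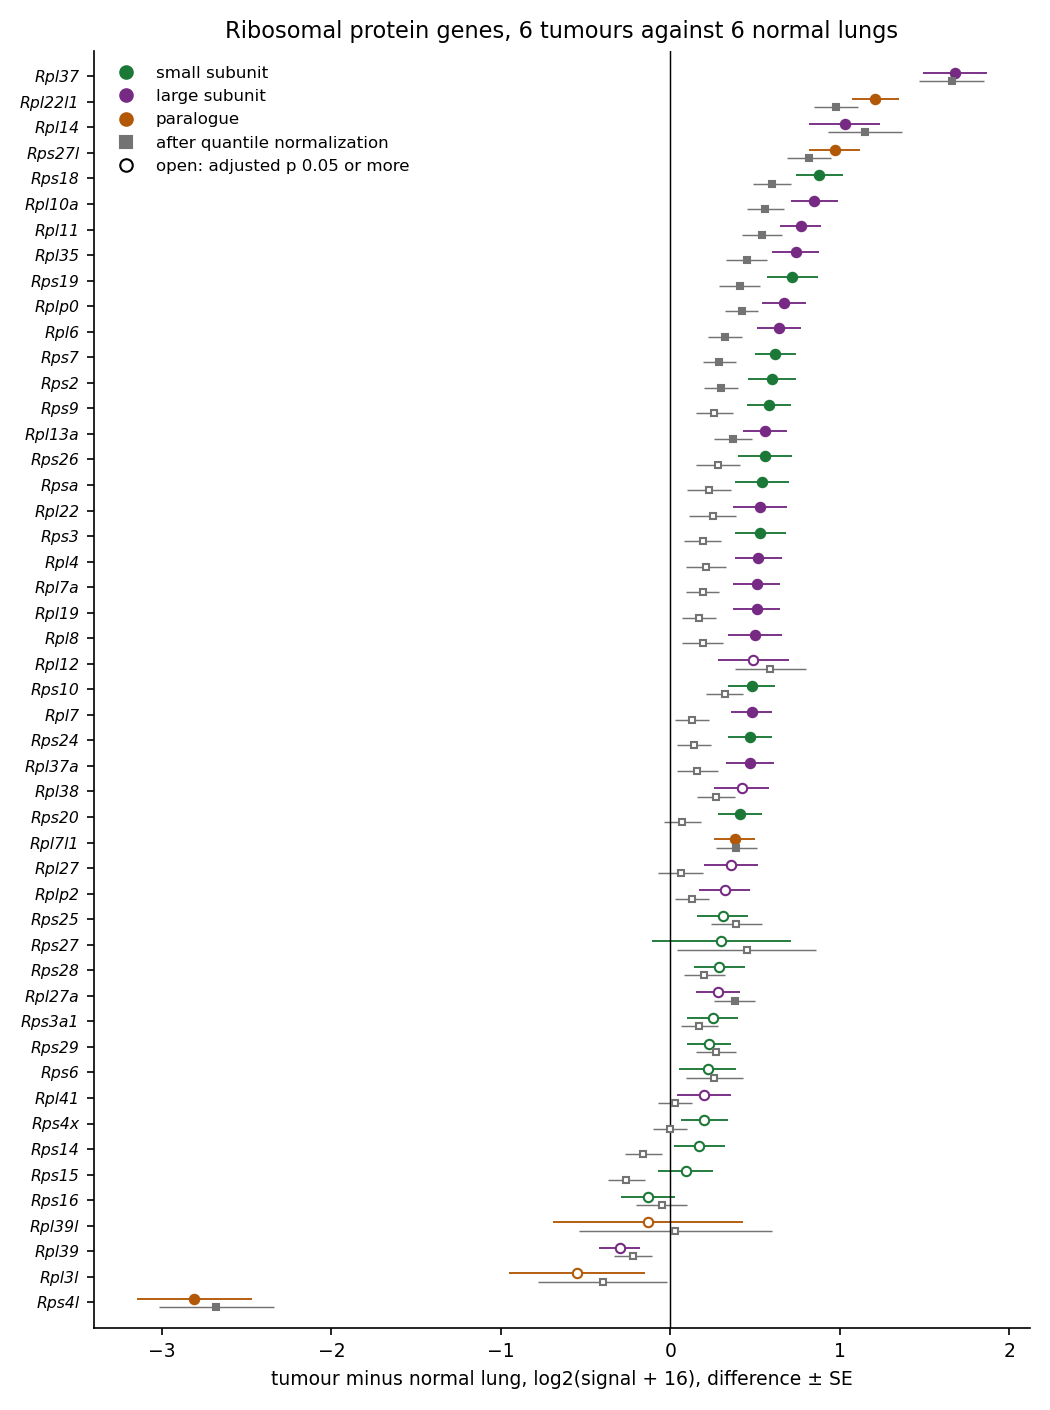
Difference between tumours and normal lungs for the 49 genes, on the log2(signal + 16) scale, as deposited and after quantile normalization, with bars of 1 SE (6 arrays per group). Core genes sit between -0.30 and 1.68 as deposited, most of them lie nearer 0 after quantile normalization, and Rps4l stands apart at -2.81.

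In the core ribosome 26 of 43 genes were higher and none was lower. Those 26 spanned 0.41 to 1.68 on the log2 scale, or 1.32-fold to 3.21-fold. The large subunit had 15 of 22 genes higher with a median of 0.51, and the small subunit 11 of 21 with a median of 0.41; the difference between the subunits was not tested. After quantile normalization 9 genes of the large and 4 of the small subunit were called higher, of which 8 and 4 were also called as deposited.

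In the large subunit, Rpl37, a zinc-finger protein that binds ribosomal RNA, had the largest difference. Its signal in tumours was 2736 at the lowest, 2928 at the median and 4643 at the highest, against 667.0, 886.7 and 1514 in normal lungs. No tumour overlapped a normal lung, and tumour 5 stood above the other tumours. The difference was 1.68 ± 0.19 (SE, limma adjusted p = 1.40e-05) and 1.66 after quantile normalization. Rpl37 was read from its only probe set, of a kind that can match more than 1 transcript (suffix _x_at). Its mean signal was 2131, where the median over core genes was 21147. The part of the probe set in the size of this difference was not tested.

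Rpl10a, a protein of the L1 stalk through which the spent tRNA leaves, ranged over 20936 to 27888 with a median of 25489 in tumours, and over 11691 to 18248 with a median of 13504 in normal lungs. Its groups did not overlap either, and its difference was 0.85 ± 0.14 (SE, limma adjusted p = 2.84e-04). Rpl11, the Mdm2-binding partner of the 5S particle, had 14711, 17457 and 17734 as lowest, median and highest signal in tumours, against 8291, 9650 and 11834 in normal lungs. Tumours were tightly grouped and all above the normal lungs, with a difference of 0.77 ± 0.12 (SE, limma adjusted p = 2.62e-04).

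Rpl35, which lies at the exit of the peptide tunnel, had a lowest, median and highest signal of 18814, 21396 and 25951 in tumours and 11092, 12817 and 18054 in normal lungs. The groups came close only through normal lung 3, whose 18054 lay above the other normal lungs by more than their whole range. The difference was 0.74 ± 0.14 (SE, limma adjusted p = 0.00110). Rplp0, the base of the stalk that recruits elongation factors, was also higher, at 28651, 31525 and 37310 in tumours against 17823, 20007 and 25533 in normal lungs, a difference of 0.67 ± 0.13 (SE, limma adjusted p = 0.00162). Its stalk partner Rplp2 had 29407, 31767 and 38487 in tumours against 21753, 26214 and 33535 in normal lungs, groups that overlapped, and did not pass (0.32 ± 0.15, SE, limma adjusted p = 0.132).

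Rpl14 had the second largest difference among core genes. It was read from a dim probe set with 227.2 to 606.7 in tumours and 168.3 to 261.1 in normal lungs, and its difference was 1.03 ± 0.21 (SE, limma adjusted p = 0.00245) although tumour 1, at 227.2, lay within the range of normal lungs. Among genes that differed by less, Rpl6 ranged over 21164 to 26062 in tumours and 13176 to 19452 in normal lungs without overlap. Rpl13a, the protein released in the interferon response to silence inflammatory messages, ranged over 30571 to 37011 in tumours and 20743 to 28704 in normal lungs, again without overlap. Rpl39, an X-linked tunnel protein, was the core gene with the lowest difference, -0.30 ± 0.12 (SE, limma adjusted p = 0.0835), at 444.3 to 625.4 in tumours and 547.5 to 730.2 in normal lungs. It was the one core gene called lower in any of the alternative settings, 3 of 26.

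In the small subunit, Rps18, a head protein near the contact with the large subunit, had the largest difference. Its signal was 23705 at the lowest, 26493 at the median and 31110 at the highest in tumours, against 12515, 14261 and 18881 in normal lungs. The groups did not overlap, and the difference was 0.88 ± 0.14 (SE, limma adjusted p = 2.09e-04). Rps19, the protein most often altered in Diamond-Blackfan anaemia in humans, ranged over 19767 to 28638 in tumours and 11596 to 19050 in normal lungs, 1.65-fold higher (limma adjusted p = 0.00250). Rps7, another small-subunit protein reported to bind Mdm2, ranged over 24408 to 31702 in tumours and 15835 to 21588 in normal lungs. Neither pair of ranges overlapped.

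Rpsa, also known as the laminin receptor precursor, had 18796, 25720 and 28432 as lowest, median and highest signal in tumours, against 13540, 17572 and 23478 in normal lungs. Tumour 1, at 18796, lay well under the other tumours and inside the range of normal lungs. The difference was 0.54 ± 0.16 (SE, limma adjusted p = 0.0245) and was not called after quantile normalization (0.23, adjusted p = 0.240). Fau, which encodes the small-subunit protein Rps30 fused to a ubiquitin-like protein and lies outside the naming rule, was at 17633 to 26235 in tumours and 12247 to 21769 in normal lungs and did not pass (0.41, limma adjusted p = 0.0963).

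The 3 brightest genes did not pass the test. Rps29, the brightest, had 39672, 40460 and 47229 as lowest, median and highest signal in tumours against 32296, 35414 and 40752 in normal lungs, a difference of 0.23 ± 0.13 (SE, limma adjusted p = 0.215). Rps28 (0.29 ± 0.15, SE, limma adjusted p = 0.188) and Rps3a1 (adjusted p = 0.280) likewise overlapped between groups. X-linked Rps4x was at 26443 to 34918 in tumours and 22940 to 31826 in normal lungs, with 0.20 ± 0.14 (SE, limma adjusted p = 0.343). At the other end, Rps16 is named only by a probe set whose highest signal on any array was 8.43, under the offset of 16, so it carries no usable level.

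**Figure D2:**
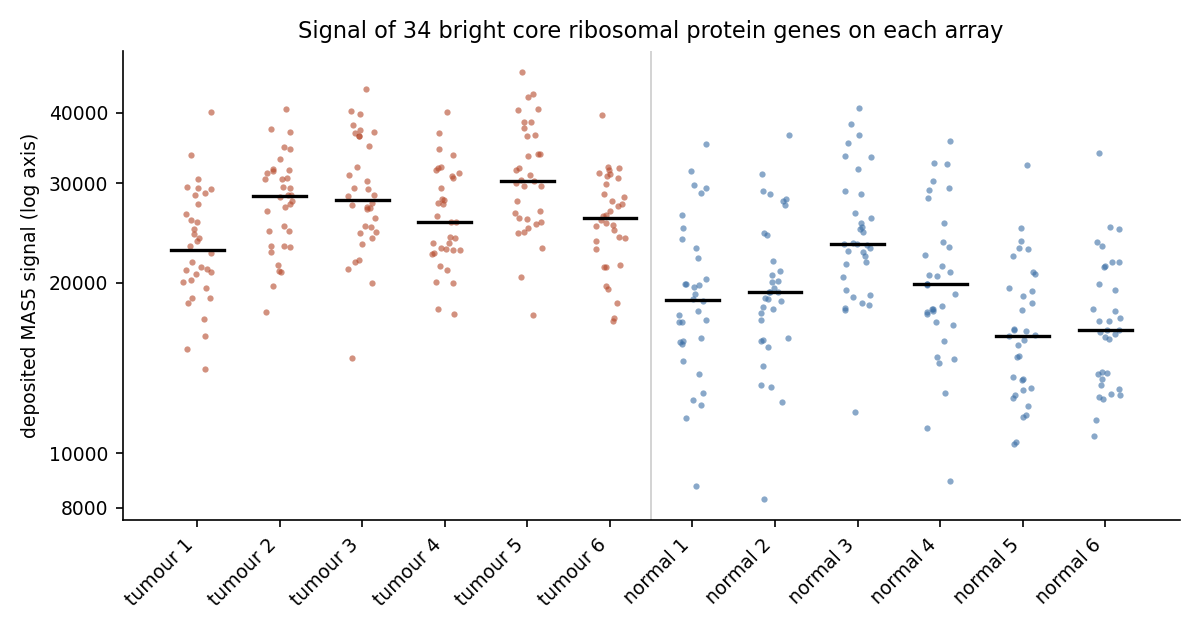
Deposited MAS5 signal (log axis) on each array for the 34 core ribosomal protein genes with a mean signal of 10000 or more, tumours left of normal lungs; points are genes and bars are medians. Normal lung 3 lies closest to the tumours, and tumour 1 is the lowest tumour for 26 of the 34 genes.

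On the deposited scale the arrays moved as a block across the core genes. Whether this is particular to these genes was not tested. The highest signal of any probe set also differed among arrays. It was 44532 and 43763 in normal lungs 5 and 6, and 57345 to 64503 in the other normal lungs. In tumours it was 39672 to 54394. The 43 genes supplied 4.35% to 5.56% of the summed signal of all 18193 genes in tumours and 3.26% to 4.5% in normal lungs, and their median signal was 21083 to 27875 in tumours and 14793 to 22733 in normal lungs. The overlap came from 1 array on each side. Normal lung 3 had the highest signal among normal lungs for 38 of the 43 genes and at 4.5% reached above tumour 1, at 4.35%; the other normal lungs reached 3.75%. Tumour 1 was the lowest tumour for 28 genes and tumour 5 the highest for 22, while normal lung 5 was the lowest normal lung for 26. These ranks are of deposited signals. After quantile normalization the mean log2 level of the 34 brightest core genes was 14.50 in normal lung 3. It was 14.32 to 14.34 in the other normal lungs, normal lung 5 included. In tumours it was 14.46 in tumour 1, 14.62 in tumour 5 and highest in tumour 6, at 14.65. Tumour 1 also had the highest ratio of 3′ to 5′ signal of actin, 1.32 where the other arrays had 1.16 to 1.19, and the highest summed signal of 5 macrophage markers, 82513; their part in its low levels was not tested. Without normal lung 3 the count of genes called higher was 30, and without tumour 1 it was also 30. Among the 34 core genes with a mean signal of 10000 or more, the coefficient of variation within a group was taken on deposited signals. Its median was 11.6% in tumours and 15.4% in normal lungs.

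Marker genes of cell types and of the cell cycle also differed among the arrays, not always in the order of the ribosomal protein levels. The highest cell cycle sum was that of tumour 6. There the core genes supplied 4.8% of the deposited signal, a share lower only in tumour 1 among tumours. After quantile normalization, however, tumour 6 had the highest mean log2 level of the core genes, 13.44, against 13.25 to 13.43 in the other tumours. How cell cycle and ribosomal protein levels go together was not tested. Of 4 B cell markers measured, the summed signal was 401.6 to 1853 in tumours and 1006 to 12639 in normal lungs, and the 12639 was that of normal lung 3, with 2180 the highest of the other normal lungs. Of 7 cell cycle markers, 5 were called higher, with a summed signal of 9578 to 18221 in tumours and 6958 to 8882 in normal lungs. All 7 endothelial markers were called lower, with a sum of 2774 to 8878 in tumours and 45000 to 62124 in normal lungs, and all 5 ciliated markers too, at 476.4 to 1972 and 8077 to 10357. Of 5 type II markers, which identify alveolar epithelium, 3 were called higher (Sftpb, Abca3 and Napsa). Sftpc, with a difference of -0.33, and Sftpa1, with 0.09, were not called. After quantile normalization only Napsa was called. The sum of the 5 was 78005 to 168327 in tumours, lowest in tumours 6 and 2, and 86447 to 124048 in normal lungs. Of 5 macrophage markers 2 were called higher (Cd68 and Itgax), with a sum of 36934 to 82513 in tumours and 41487 to 58288 in normal lungs. All 3 club cell markers and 4 of 5 type I markers were called lower. Liver transcripts stood apart in normal lungs 2 and 4, where 4 liver markers summed to 17821 and 21857. The sum was 132.4 to 5776 in tumours and at most 3200 in the other normal lungs. Without normal lungs 2 and 4, 20 of the 49 genes were called higher, with a median of 0.50. That setting holds fewer arrays, and the share of all genes called in it is not given. The part of these cell populations in the ribosomal protein levels was not tested. In bulk tissue, more cells of a type and more RNA per cell cannot be told apart.

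Sex-linked genes also differed between the groups. X-linked Xist had a signal of only 47.1 to 109.3 in tumours 1, 2, 3 and 5. Tumour 4 had 12621, tumour 6 had 10184, and the normal lungs spanned 7877 to 11265. Eif2s3y, on the Y chromosome, was at 740.5 to 1638 in tumours 1, 2, 3 and 5, at 2.09 and 12.6 in tumours 4 and 6, and at 2.18 to 27.4 in normal lungs. With Eif2s3y as a covariate 12 of the 49 genes were called higher with a median difference of 0.45, and among the arrays with Eif2s3y under 100, 2 tumours against 6 normal lungs, 11 were, with a median of 0.42. The median thus changed little from 0.48. The second setting also holds fewer arrays. Shares of all genes called are not given for these settings. By Xist and Eif2s3y, tumours 1, 2, 3 and 5 read as male, and tumours 4 and 6 and every normal lung as female. With no male normal lung, sex was partly confounded with group in the comparison of all arrays. An effect of sex itself was not tested. In all 27 settings 11 genes were called higher: Rpl6, Rpl10a, Rpl11, Rpl14, Rpl22l1, Rpl35, Rpl37, Rplp0, Rps7, Rps18 and Rps27l, with Rpl37 read in 26 of them.

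Bright and dim core genes are given apart, and the difference between them was not tested. Among 34 core genes with a mean signal of 10000 or more all had a positive difference, 24 were called higher and the median was 0.51; after quantile normalization 10 were and the median was 0.22. Of the 200 other genes as bright, 59 were called higher (29.5%) and 47 lower, with a median of 0.11, and after quantile normalization 38 were higher and 68 lower, with a median of -0.11. The 9 core genes under 10000 had 2 called higher, and 3 after quantile normalization. Those 9 were Rpl12, Rpl14, Rpl27a, Rpl37, Rpl39, Rps6, Rps16, Rps25 and Rps27, whose bright probe sets, if on the array, are not single-symbol ones.

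Dimmer probe sets of the same gene often showed larger differences. Of the 19 genes with several probe sets at a mean signal of 1000 or more, the dimmest had a larger difference than the brightest in 13, and in 12 after quantile normalization. This count was not tested and holds narrow cases. In Rps28 the differences were 0.30 and 0.29, and the mean signals of the Rps14 probe sets were 22477 and 22718. The genes given next are among those with the widest gaps. For Rpl13a it was 2.02 at a mean signal of 3691 and 0.56 at 28477. For Rpl27 it was 1.12 at 3943 and 0.36 at 18611, and for Rps9 1.13 at 6247 and 0.58 at 18823. The pattern was not universal: in Rpl22 the dimmest probe set, at 1842, gave 0.05, while one at 7747 gave 1.67 and the brightest, at 21147, gave 0.53.

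Over all 105 probe sets, 58 were called higher and 1 lower (10.1% and 13.9% of all probe sets), with a median of 0.51. By mean signal, 4 of 16 at 25000 or more were higher with a median of 0.29, 39 of 44 between 10000 and 25000 with 0.59, and 12 of 14 between 1000 and 10000 with 1.13. Of the 15 between 200 and 1000, 3 were higher and 1 lower, and of the 16 under 200 none was called. After quantile normalization 43 of the 105 were higher and 1 lower, with a median of 0.30. By signal, from the brightest class down, 2, 22, 12, 6 and 1 probe sets were then higher, with medians of 0.14, 0.29, 1.0, 0.45 and 0.15. Of the 24 genes with more than 1 probe set, none had probe sets called in opposite directions. In 11 called genes another probe set was not called the same way, and in 4 genes that were not called another probe set was higher. Probe sets of the kinds that can match more than 1 transcript, with the suffix _x_at or _s_at, made up 41% of the 105 and 10.1% of all probe sets, so signal from near-identical copies and processed pseudogenes could be counted with a gene. Among the 110 probe sets annotated with a ribosomal protein symbol and other symbols, 62 were higher and 1 lower, with a median of 0.50.

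**Figure D3:**
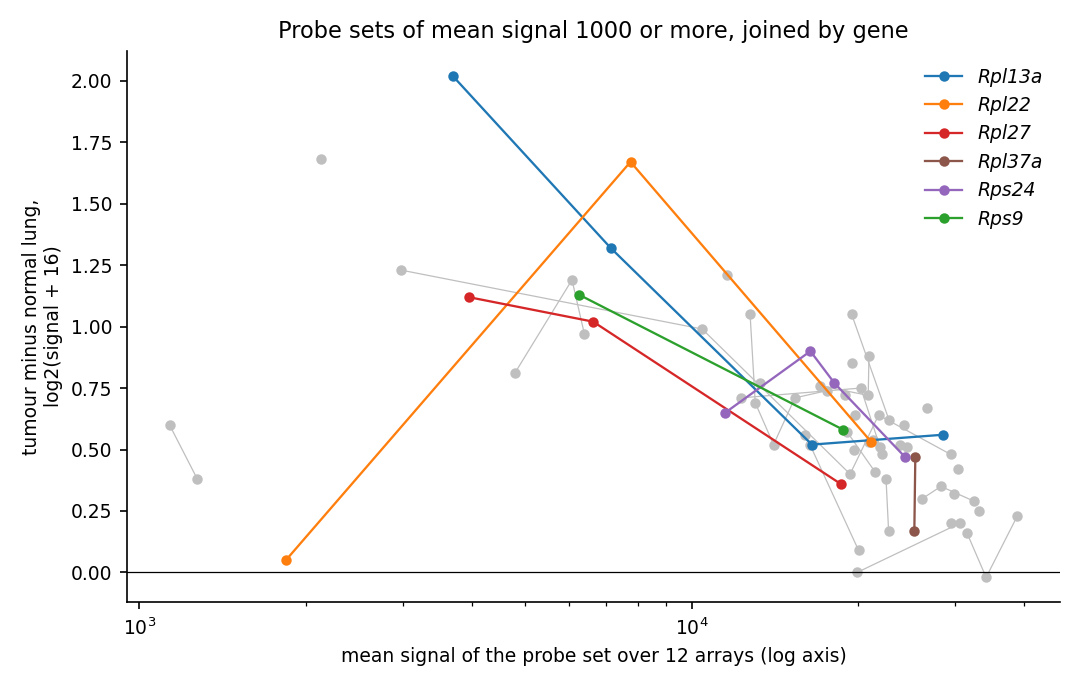
Difference between tumours and normal lungs, on the log2(signal + 16) scale, against mean signal over the 12 arrays (log axis). Shown are the probe sets of the 49 genes with a mean signal of 1000 or more, joined by gene, with some genes in colour. The largest differences lie between 1000 and 10000, where the median is 1.13, and the median at 25000 or more is 0.29. The probe set of Rps4l, at a mean signal of 324.3, is not shown.

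The 6 paralogues went in both directions. Of these, 3 were called higher, 1 lower and 2 were not called. Rpl22l1, a paralogue of the RNA-binding protein Rpl22 with a role in blood cell development, had 13168, 15498 and 20374 as lowest, median and highest signal in tumours, against 5630, 7094 and 8718 in normal lungs. Every tumour lay far above every normal lung, and the difference was 1.21 ± 0.14 (SE, limma adjusted p = 2.13e-05). Rpl22 itself, read from its brightest probe set, was higher by 0.53 (adjusted p = 0.0217) with overlapping groups, and was not called after quantile normalization (0.25, adjusted p = 0.226). Its probe set at a mean signal of 7747 gave 1.67 (limma adjusted p = 3.05e-05), and 1.52 after quantile normalization, and its dimmest gave 0.05. How Rpl22 compares with Rpl22l1 therefore depends on the probe set read. The difference between the 2 genes was not tested.

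Rps27l, a paralogue of Rps27 that is a p53 target in human cells, was at 6444, 7991 and 12240 in tumours, lowest, median and highest, against 3627, 4223 and 5235 in normal lungs. The 12240 was tumour 2. The groups did not overlap, and the difference was 0.97 ± 0.15 (SE, limma adjusted p = 1.69e-04). Rps27 was read from a dim probe set, at 159.3 to 725.4 in tumours and 134.6 to 696.4 in normal lungs, and did not pass (adjusted p = 0.668). Rpl7l1, a nucleolar relative of Rpl7, was slightly higher, at 1177, 1387 and 1905 in tumours against 974.5, 1081 and 1258 in normal lungs, with overlap and 0.38 ± 0.12 (SE, limma adjusted p = 0.0318).

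Rps4l, an autosomal relative of X-linked Rps4x, was the one gene that passed the test downward. Its signal was 17.8 at the lowest, 63.2 at the median and 171.0 at the highest in tumours, against 436.6, 578.3 and 671.0 in normal lungs. No tumour came near a normal lung. The difference was -2.81 ± 0.34 (SE, limma adjusted p = 2.52e-05), a level 0.14 times that of normal lungs, and it was called lower in all 27 settings. The size moved with Eif2s3y: the 4 tumours with Eif2s3y at 100 or more had 17.8 to 72.7, and tumours 4 and 6, with little Eif2s3y, had 128.6 and 171.0. With Eif2s3y as a covariate the difference was -1.99, and among the arrays under 100 it was -1.81.

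The other paralogues were near background. Rpl3l, the striated-muscle form of Rpl3, was at 7.59 to 53.5 in tumours and 10.7 to 114.4 in normal lungs (-0.55 ± 0.40, SE, limma adjusted p = 0.359). Rpl39l, the form of Rpl39 known from the mouse testis, was at 2.36 to 51.2 in tumours 1 to 5 and at 306.9 in tumour 6, and at 9.57 to 71.7 in normal lungs (limma adjusted p = 0.903).

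Genes that make ribosomes and drive translation were set beside the ribosomal proteins. Of 34 initiation factors 17 were higher and 2 lower with a median of 0.45, and of 10 elongation and termination factors 5 were higher and 1 lower with a median of 0.40. Over all genes 12.2% were called higher and 17.5% lower. Eif4a1, the helicase that unwinds the message's leader, was at 10443 to 14452 in tumours and 5543 to 7135 in normal lungs, a difference of 1.07. Eif5, which triggers GTP hydrolysis at the start codon, was at 7058 to 8762 in tumours and 3747 to 4478 in normal lungs (0.91). Eif3m, a subunit of the scaffold factor eIF3, was at 2056 to 3249 in tumours and 1074 to 1381 in normal lungs, and its partner Eif3k was higher by 0.67. The lower genes were Eif1b, a start-codon selection factor (-0.48), Eif4g3, an eIF4G scaffold (-0.61), and Eif5a2, a hypusinated elongation factor (-0.72). Eif5a2 was near the threshold (limma adjusted p = 0.0480) and was not called after quantile normalization (-0.57, adjusted p = 0.0910). The elongation list then had 3 higher and 0 lower with a median of 0.26, and the initiation list 17 and 2 with 0.39. Under that scaling 13.9% of all genes were called higher and 16% lower.

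Among elongation factors, Eef1d and Eef1b2, which recharge the factor that brings tRNA, were higher by 0.70 and 0.76. Eef1e1, which belongs to the aminoacyl-tRNA synthetase complex, was higher by 0.83. Eef2, the translocase and itself a TOP message, ranged over 13258 to 22886 in tumours and 10940 to 16294 in normal lungs, with 0.53 (limma adjusted p = 0.0186), and was not called after quantile normalization.

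Ribosome assembly genes gave 18 higher and 2 lower of 46, with a median of 0.37, and RNA polymerase I genes 6 higher and 1 lower of 18, with a median of 0.29. The upward shares were 39.1% and 33.3%, where 12.2% of all genes were called higher and 17.5% lower. Npm1, a nucleolar chaperone, was at 10479 to 16516 in tumours and 5064 to 7334 in normal lungs, a difference of 1.26. Ncl, nucleolin, was at 6958 to 11048 in tumours and 3719 to 5103 in normal lungs. Nhp2, a protein of the pseudouridylation particles, was higher by 1.18. Polr1c, a subunit that polymerases I and III share, was higher by 1.48 and Polr1d, its partner, by 0.78. Polr2f and Polr2h, subunits of all 3 nuclear polymerases, were higher by 0.72 and 0.82. Sbds, the factor that frees the large subunit for joining and is altered in Shwachman-Diamond syndrome, was lower, at 1718 to 1976 in tumours and 2800 to 3441 in normal lungs (-0.69). The other lower genes were Bysl, a small-subunit assembly factor (-0.91), and Taf1a, part of the polymerase I promoter factor (-0.53). Taf1a was not called after quantile normalization (-0.42, limma adjusted p = 0.0569), where the polymerase I list had 8 higher and 0 lower and the assembly list 19 and 2. With Eif2s3y as a covariate neither Taf1a nor Bysl was called. Without normal lungs 2 and 4 the assembly list had 11 higher and the polymerase I list 4, with medians of 0.39 and 0.26. That setting holds fewer arrays, and the share of all genes called in it is not given.

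Of 17 regulators upstream of TOP messages, 2 were higher (11.8%) and 2 lower, with a median of 0.11. Over all genes 12.2% were called higher and 17.5% lower, so the upward share of this list was near that of all genes. Sesn1, a sestrin that inhibits mTORC1, was at 364.1 to 606.6 in tumours and 1318 to 1845 in normal lungs, a difference of -1.61. Rps6kb2, a kinase of ribosomal protein S6, was lower by a difference of -0.57. Ddit4, another mTORC1 inhibitor, was higher by 1.04, and Larp4, which stabilises messages through the poly(A) tail, by 0.62. With Eif2s3y as a covariate none of the 17 was called higher and 2 were called lower. The differences of Ddit4 and Larp4 were then 1.12 and 0.60, little changed. Their SE rose from 0.30 to 0.41 and from 0.14 to 0.20. The share of all genes called in this setting is not given. All differences in these lists that are called here passed limma's test with an adjusted p under 0.05, and the lists were not tested as sets.

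**Figure D4:**
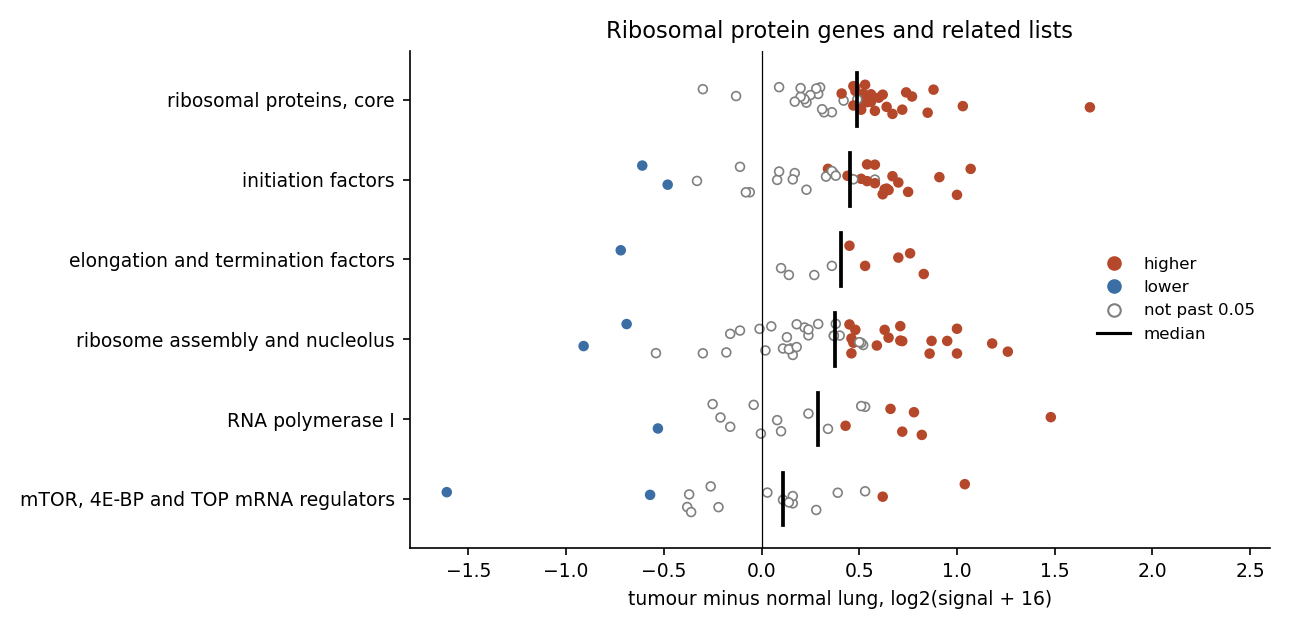
Difference between tumours and normal lungs, on the log2(signal + 16) scale, for core ribosomal protein genes and 5 related lists. Each point is a gene, filled where it passed limma's test, and vertical bars are list medians, from 0.49 for core ribosomal proteins to 0.11 for the mTOR and TOP regulators.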

How the data were processed

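RNA of each sample was labelled with biotin in a one-cycle protocol and hybridised to 1 Affymetrix array, per the labels' protocols. The authors deposited 1 linear signal intensity for each probe set. MAS5 is named in the submitters' processing notes, and its version and settings are not given in the sources used here. On every array the deposited signals had a trimmed mean (2% cut from each end) of 500, a global scaling that was kept and does not equalise the distributions. For array controls, 64 of 45101 probe sets were left out. Of the rest, 34945 had 1 symbol in GEO's platform annotation, 932 several and 9160 none; symbols were checked against RefSeq tables (GRCm38.p6).

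An offset of 16 was added before taking log2, so differences of dim probe sets are understated. Models were fitted in R 4.3.3 by lmFit and eBayes of limma 3.58.1, with a trend in intensity and no covariate, two-sided, with adjustment over 45037 probe sets. Python 3.11.15, numpy 2.4.6, pandas 2.3.3 and matplotlib 3.10.9 were used. The fit was tested on simulated data. The number of arrays limits the precision. Other settings were an offset of 1 or 64, median centring, quantile normalization, a mean signal of at least 200, no trend, array weights, the replicate block, other probe set choices, Eif2s3y as covariate or filter, and leaving out arrays. The replicate numbers did not pair tumours with normal lungs: correlations of same-numbered samples were -0.0178 to 0.0217.

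The genes and lists were chosen with earlier results of these data known. Genes named by rule were the 8 smallest adjusted p in each direction, the paralogues, stalk, 5S particle and X-linked genes, Rpsa, Fau, the 3 brightest and 3 dimmest, and up to 4 genes per related list. Other genes named, the signal limits of 1000, 10000 and 25000, the promoter letters and the sequences shown were chosen after values were seen.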

Additional observations from a re-analysis of the deposited data

Results flagged for a closer look

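Across 76 items (75 genes and the mean of the core genes), 152 groups of 6 arrays were examined for a single array far from the others, and 16 had one (Dixon's gap ratio above its 95% critical value). Chance marks about 1 in 20 groups, and the groups share arrays.

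Normal lung 3 was the high array in 10 of the 16. Among ribosomal protein genes its signals were 28704 for Rpl13a, 23366 for Rpl22, 18054 for Rpl35, 26050 for Rpl37a, 25109 for Rps24 and 18457 for Rps26, where the other normal lungs reached at most 23671, 17796, 13097, 21888, 19908 and 12748 for the same genes. For translation and nucleolar genes it had 16294 for Eef2, 3542 for Eif3k, 1344 for Nhp2 and 7334 for Npm1. The same array had the highest summed B cell markers, 12639, and the part of B cells in these values was not tested.

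Tumour 1 was the low tumour for Rpl4, at 20760 against 28207 to 31744 in the other tumours, and for Rpsa, at 18796 against 25033 to 28432. Tumour 5 was the high tumour for Rpl37, at 4643 against 2736 to 3319, and the low one for Sbds, at 1718 against 1909 to 1976. Tumour 6 had 306.9 for Rpl39l, where the other tumours had at most 51.2. Normal lung 2 had 779.5 for Larp4 against 1091 to 1192 in the other normal lungs.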

How the results depend on the processing

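The count of 29 genes higher in tumours moved to 16 under quantile normalization, to 12 with Eif2s3y as a covariate and to 11 among the arrays with Eif2s3y under 100. It was 37 with median centring, which moved the median of all genes to 0.11, from -0.08 as deposited, and the median of the 49 genes to 0.67. Of all 18193 genes, 2216 were called higher as deposited, 2530 under quantile normalization and 3498 with median centring. The counts with Eif2s3y and with arrays left out have no share over all genes beside them here. The median of 0.48 became 0.26 under quantile normalization. The count of 1 lower gene became 2, through Rpl39, with the mean of probe sets and with a mean signal of at least 200. Leaving out 1 array at a time gave 24 to 30 higher, 1 to 2 lower (2 without tumour 4, again Rpl39) and medians of 0.44 to 0.56. Without normal lungs 2 and 4, which held liver transcripts, there were 20 higher, and without tumours 2 and 6, which held gastric transcripts in an earlier analysis of these data, there were 26. Over all settings the counts of higher genes were 13 to 22 for initiation factors, 3 to 6 for elongation and termination, 11 to 25 for assembly, 4 to 9 for polymerase I and 0 to 4 for the mTOR and TOP regulators. With the replicate block there were 24 higher, 1 lower and a median of 0.48, although the numbers do not pair the samples: 0 of 6 correlated best with their own number.

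For single genes, the 1941 alternative values kept direction and side of the threshold in 1761; 141 lost the call, 23 gained one and 16 turned sign, all of them in genes not called. Rpl39l turned to 0.34 with the covariate, 0.40 among arrays with little Eif2s3y, 0.06 with median centring, 0.04 with an offset of 64, 0.03 under quantile normalization, and 0.02 to 0.18 without tumour 1, 3 or 4, in a range of -0.65 to 0.18 over the arrays left out. Rps15 turned to -0.0042 with the covariate, -0.05 among arrays with little Eif2s3y and -0.26 under quantile normalization, where Rps14 gave -0.16 and Rps4x -0.0047. Rps16 gave 0.06 with median centring, and with the mean of probe sets Rpl27a gave -0.10 and Rps6 -0.02. The cause was not tested. Signals near or under the offset of 16 carry no order.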
